A study of Mus musculus with 6 samples.

Results

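The genes described here code for innate immune receptors of macrophages that are built from immunoglobulin-like domains: *Trem2*, the Cd300 receptors *Cd300a*, *Cd300lb*, *Cd300ld* and *Cd300lf*, the sialic acid-binding lectins *Siglec1*, *Siglece* and *Cd33*, and *Tyrobp*, the signalling adaptor that several of them share. They were chosen by gene family, with earlier results of these data known. All 9 were found among the 24972 rows of gene symbols in the deposited table. RNA-seq was done on primary macrophages differentiated from the bone marrow of mice in medium with 10% fetal bovine serum and 20% L929 supernatant, which supplies the growth factor M-CSF. One genotype was wild type (WT), and the other lacked *Lcn10*, which codes for a secreted protein of the lipocalin family (Lcn10-KO). All cells were untreated, and each genotype had 3 libraries. Strain, sex, age, the knockout allele and whether each library had its own mouse were not given in the sources used here. Accordingly, p-values reflect the spread among libraries, possibly a technical one. All values are normalized counts, that is, read counts that the authors scaled to make the libraries comparable.

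These receptors set how strongly a myeloid cell reacts to lipids, dying cells and sugars on neighbouring cells. Receptors such as TREM2 have short tails and signal through DAP12, the product of *Tyrobp*, whose immunoreceptor tyrosine-based activation motif (ITAM) recruits the kinase SYK. Others, such as CD300A, carry inhibitory motifs (ITIMs) in their own tails and recruit the phosphatases SHP-1 and SHP-2. Most Siglecs of myeloid cells are inhibitory lectins that read sialic acid, while SIGLEC1 (sialoadhesin) has a long extracellular part and no ITIM.

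By an estimate from the spacing of low values, about 18000000 to 24800000 reads per library were counted to genes. On that estimate 1 read was worth 0.824 to 1.14 normalized counts. *Lcn10* was listed at 0 in all 6 libraries and therefore does not check the genotype labels. All 10 macrophage markers looked at were detected, with summed levels of 296351 to 305531 in WT and 315495 to 326949 in Lcn10-KO. Their single changes went both ways: *Mertk* and *Adgre1* were called higher (log2 fold changes 0.44 and 0.26, limma adjusted p = 0.00128 and 0.0338), and *Csf1r* and *Cd14* lower (−0.23 and −0.17, adjusted p = 0.0129 and 0.0449). Among other cell types, none of the 8 markers each of dendritic cells and of T and NK cells passed the filter on low values, and *Ly6g*, *Fcer1a*, *Epx* and *Calcr* were listed at 0. Markers of the osteoclast list summed to 4615 to 6188 in WT and 7782 to 8611 in Lcn10-KO, neutrophil markers to 643 to 897 in WT and 910.04 to 1025 in Lcn10-KO, endothelial markers to 343 to 460.4 and 349.7 to 780.4, fibroblast markers to 2882 to 4472 and 3786 to 4270, monocyte markers to 518 to 784 and 641 to 756, mast cell and basophil markers to 43.3 to 74.9 and 60.9 to 71.8, and eosinophil markers to 401 to 542 and 557 to 706. The endothelial marker *Stab2*, at 25.3 ± 5.25 in WT and 65.3 ± 20.2 in Lcn10-KO, was called higher (SD, n = 3 each, limma adjusted p = 0.0121), as were *Atp6v0d2* of the osteoclast list (0.0340) and *Csf3r* of the neutrophil list (0.0363). In this bulk RNA, fewer cells of a type and less RNA per cell cannot be told apart, and the part of these cells in the results below was not tested. Among the members, WT replicate 1 was the lowest of all 6 libraries for *Trem2*, *Tyrobp*, *Cd300lb* and *Cd300ld* and the highest WT library for *Cd300lf* and *Siglec1*. WT replicate 3 was the highest WT library for *Trem2*, *Tyrobp*, *Cd300lb*, *Cd300ld* and *Cd33* and the lowest for *Cd300a*, *Siglec1* and *Siglece*. How often each library takes such a place over all genes was not tested. By Spearman correlation over the genes tested, WT replicate 1 had 0.9951 and 0.9962 with the other WT libraries, which had 0.9975 with each other. Its correlations with Lcn10-KO libraries were 0.9907 to 0.9925, against 0.9955 to 0.9967 for the other WT libraries. Without WT replicate 1 the log2 fold changes of *Trem2*, *Tyrobp*, *Cd300lb* and *Cd300ld* were 0.049, 0.13, 0.037 and 0.078. With all 6 libraries they were 0.12, 0.18, 0.076 and 0.11.

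Promoters are shown because these genes are known for their expression in myeloid cells. Start sites come from RefSeq (GRCm38.p6), which had entries for 7 of the 9 members. The 150 bases before the start were searched on both strands for GAGGAA, the core of the purine-rich site of PU.1, the Ets factor of the myeloid lineage, and for the letters TGANTCA (AP-1), CACGTG (E-box) and TTGCNNAA (C/EBP). GAGGAA occurred in 5 of the 7 windows, those of *Trem2*, *Cd300a*, *Cd300ld*, *Cd300lf* and *Siglece*, and in 14.5% of the windows of 32851 promoters in the table. The position was seen only after the search: in *Trem2*, *Cd300a*, *Cd300lf* and *Siglece* a match, on the opposite strand, began 40, 39, 43 and 36 bases before the start, and 5.18% of all promoters held these letters within 50 bases of the start. TGANTCA was found in *Trem2* only (4.24% of all promoters), the E-box (4.30%) and C/EBP letters (5.46%) in none of the 7, and the matches did not overlap each other. The window was shortened from the full stretch in the table to 150 bases after matches had been seen, to keep out an exon of a longer *Cd33* transcript; this removed a GAGGAA match in *Cd33* and a C/EBP match in *Cd300a*. *Cd33* had none of the 4 in this shorter window, which lies inside the annotated span of the gene and so does not cover every annotated start. A match is a run of letters and does not show that a factor binds. The 150 bases of *Trem2* (chr17:48346251-48346400, plus strand), *Cd300a* (chr11:114889891-114890040, plus strand), *Cd300lf* (chr11:115133993-115134142, minus strand), *Siglece* (chr7:43660162-43660311, minus strand) and *Cd33* (chr7:43533172-43533321, minus strand) read as follows, 5′ to 3′ along the gene, with the matched letters in capitals.
Trem2: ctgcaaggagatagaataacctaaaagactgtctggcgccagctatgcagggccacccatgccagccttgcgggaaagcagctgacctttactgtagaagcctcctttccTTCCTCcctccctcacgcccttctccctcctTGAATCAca
Cd300a: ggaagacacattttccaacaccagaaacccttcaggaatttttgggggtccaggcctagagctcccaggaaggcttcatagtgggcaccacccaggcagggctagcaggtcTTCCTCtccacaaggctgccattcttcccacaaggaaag
Cd300lf: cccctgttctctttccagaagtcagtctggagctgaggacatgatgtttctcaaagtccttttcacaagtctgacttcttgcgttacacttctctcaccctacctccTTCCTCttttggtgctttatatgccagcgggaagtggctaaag
Siglece: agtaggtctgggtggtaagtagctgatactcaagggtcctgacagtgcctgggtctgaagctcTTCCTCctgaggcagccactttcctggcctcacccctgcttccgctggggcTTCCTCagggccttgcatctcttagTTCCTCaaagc
Cd33: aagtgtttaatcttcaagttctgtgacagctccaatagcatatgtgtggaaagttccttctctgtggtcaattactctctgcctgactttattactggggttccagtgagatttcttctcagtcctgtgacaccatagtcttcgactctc

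Lcn10-KO was compared with WT to ask whether these genes differ between the genotypes in untreated macrophages. *Cd33* rose by 61.8% in Lcn10-KO and *Tyrobp* by 13.4%, and these were the 2 of 9 members that passed the test. None fell past the threshold. Genes were tested with limma, using a mean-variance trend, on log2(value + 1), where changes of low genes come out too small, at a Benjamini-Hochberg adjusted p under 0.05 over 12091 tested genes. It called 9.84% of all genes tested, 4.70% higher and 5.14% lower, and 3 members against 26.3% of all genes had an unadjusted p under 0.05. Without the mean-variance trend no member was called, and 14 genes in all. None of the other family, partner, ligand and signalling genes looked at below was called in that fit either. All 9 members passed the filter on low values (at least 10 in at least 3 libraries). The WT and Lcn10-KO values did not overlap in 4 members, *Tyrobp*, *Cd300a*, *Cd300lb* and *Cd33*, all of them higher in Lcn10-KO. Over all genes tested 32.4% had such groups and 15.5% had them with Lcn10-KO higher. The median log2 fold change of the members was 0.11, with 6 above and 3 below 0, against −0.0011 over all genes tested, of which 49.7% lay above 0. The median size of the change, disregarding its sign, was 0.12 for the members and 0.10 for all genes tested. Because earlier results of these data were known when the members were chosen, these counts and medians are not independent evidence.

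**Figure D1:**
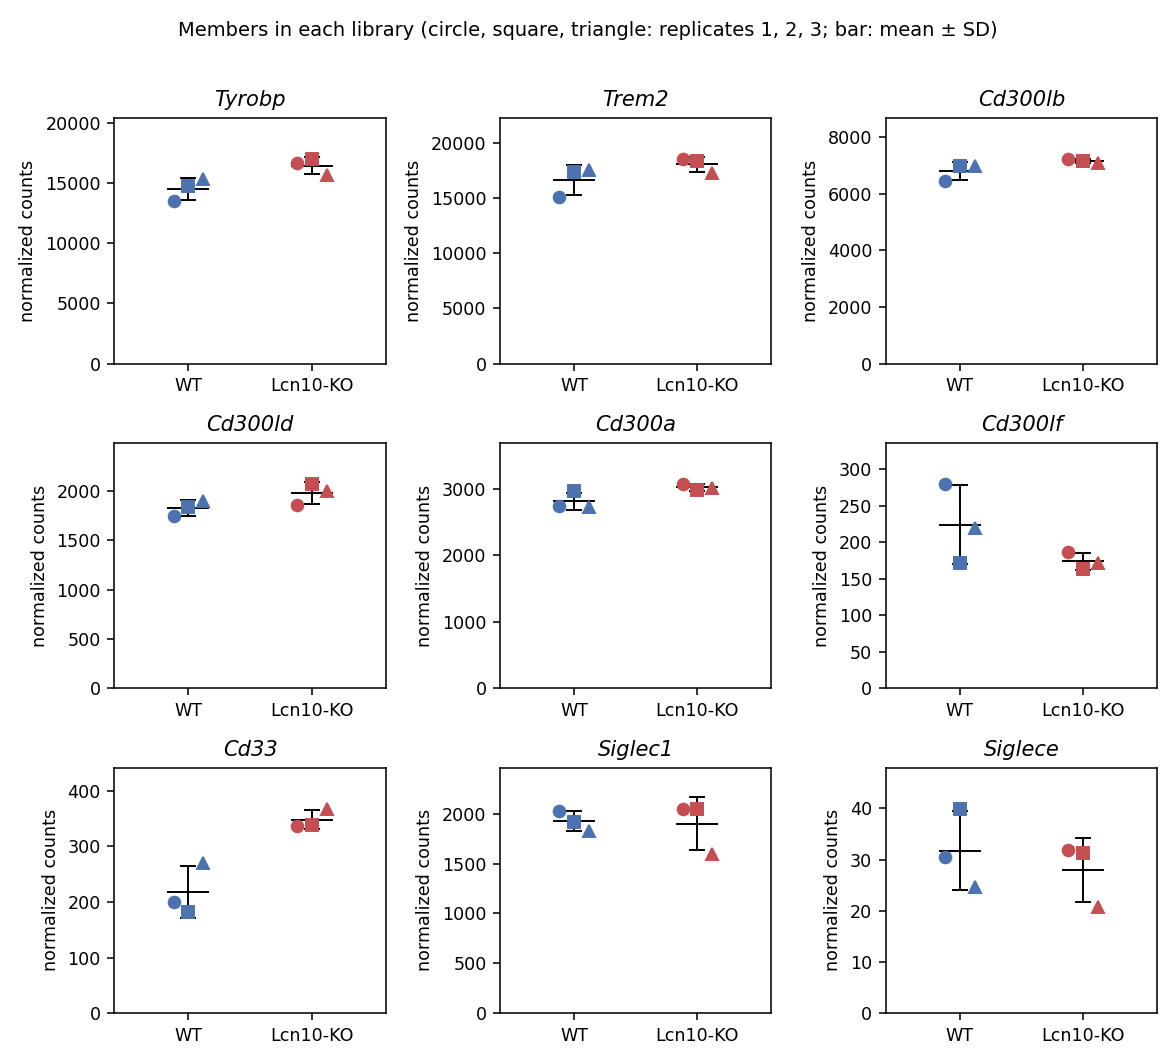
Normalized counts of the 9 members in each library (y axis, from 0), with WT in blue and Lcn10-KO in red, symbols for replicates 1 to 3 and bars for the mean ± SD of 3 libraries. *Cd33* and *Tyrobp* passed the test, and the groups are also separate for *Cd300a* and *Cd300lb*.

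Levels were set per kilobase of each gene's median coding transcript so that genes could be compared. *Tyrobp* was the most abundant at 27530 normalized counts per kilobase over the 6 libraries, followed by *Trem2* at 16175 and *Cd300lb* at 2532. The middle of the order was held by *Cd300ld* (719.9 per kilobase) and *Cd300a* (628), whose ranges over libraries overlapped, and by *Siglec1* (330.5). *Cd33* at 144 and *Cd300lf* at 107 overlapped as well, and *Siglece* at 16.2 was the lowest member. Other neighbours in this order had ranges that did not overlap. The place of *Cd33* depends on the transcript assumed, because its 3 annotated coding transcripts run from 1791 to 5728 bases and give 49.3 to 158 per kilobase. The same holds for *Siglec1*, with 299.6 to 1028. The counted isoforms are not known.

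**Figure D2:**
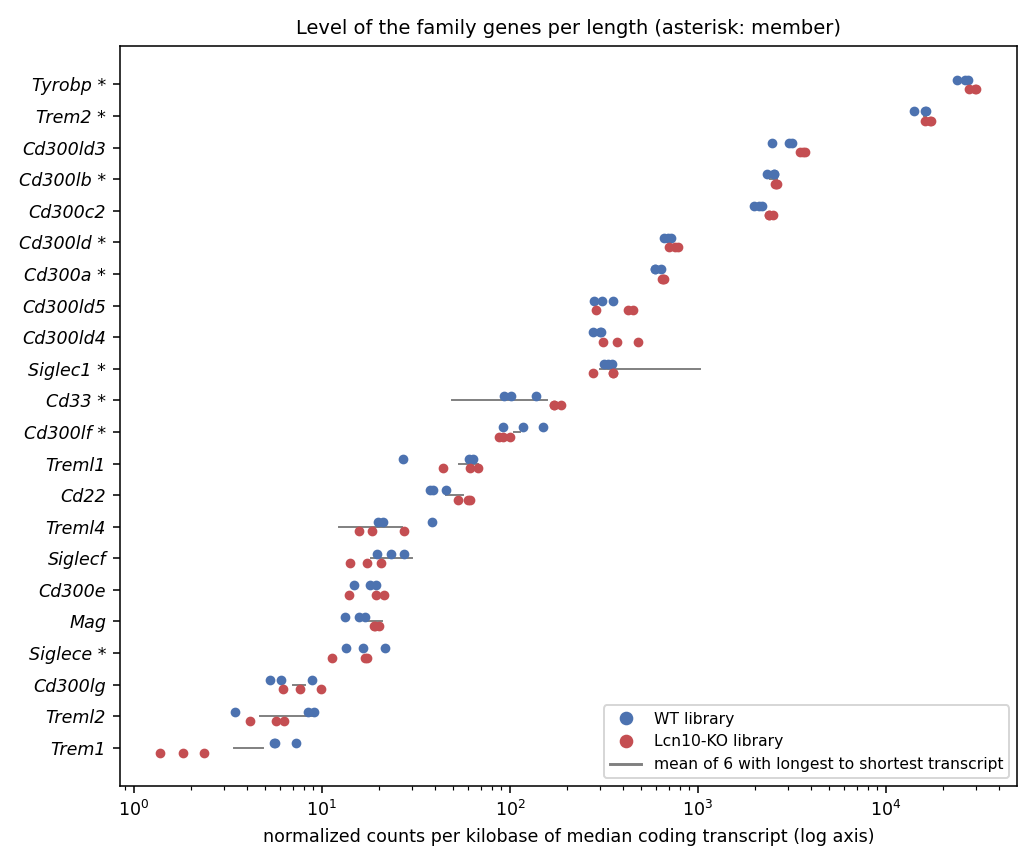
Normalized counts per kilobase (log axis) of the family genes, with 1 point per library, WT in blue and Lcn10-KO in red, and a grey line from the longest to the shortest coding transcript. *Tyrobp* and *Trem2* lie far above the other members, and *Trem1* and *Siglece* are near the bottom.

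*Tyrobp* (ENSMUSG00000030579.10, chromosome 7, 30413760 to 30417585, plus strand, GRCm38) codes for DAP12, the adaptor on which TREM2, CD300LB and other receptors depend. Its normalized counts were 13534, 14815 and 15330 in WT replicates 1 to 3 and 16744, 17059 and 15681 in Lcn10-KO replicates 1 to 3. Each Lcn10-KO library lay above each WT library, with WT replicate 1 the lowest and a narrow gap between WT replicate 3 and Lcn10-KO replicate 3. The mean rose from 14559 ± 925 to 16494 ± 722 (SD, n = 3 each), a log2 fold change of 0.18 ± 0.05 (SE, limma adjusted p = 0.0449). The call did not hold without WT replicate 1, where the log2 fold change was 0.13 (adjusted p = 0.0577), nor without Lcn10-KO replicate 1, 2 or 3 (adjusted p = 0.145, 0.198 and 0.0748).

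*Trem2* (ENSMUSG00000023992.14, chromosome 17, 48346401 to 48354147, plus strand) codes for a receptor for lipids and lipoproteins that is carried by lipid-handling macrophages, microglia and osteoclasts. Its normalized counts were 15074, 17301 and 17551 in WT replicates 1 to 3 and 18533, 18303 and 17274 in Lcn10-KO replicates 1 to 3. The groups overlapped, since Lcn10-KO replicate 3 lay below WT replicates 2 and 3. The log2 fold change was 0.12 ± 0.06 (SE, limma adjusted p = 0.216), with a 95% interval of −0.0071 to 0.24. The ratio of *Trem2* to *Tyrobp* normalized counts was 1.11, 1.17 and 1.15 in WT and 1.11, 1.07 and 1.10 in Lcn10-KO. Unrounded, each Lcn10-KO ratio lay below each WT ratio, at means of 1.14 ± 0.027 and 1.09 ± 0.018 (SD, n = 3 each, exact two-sided permutation p = 0.1, the smallest that 3 against 3 allow).

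By the shape of the profile over the 6 libraries, measured as the root mean square difference between log2 values centred on each gene's own mean, the genes most like *Trem2* among 10559 with a mean of at least 50 were *Zup1*, *Smagp* and *Fam174a* (0.013 to 0.015 log2 units). For *Tyrobp* they were *C1qb*, a chain of complement component C1q, *Eml2* and *Mpv17* (0.016 to 0.018). *Tyrobp* and *Trem2* differed from each other by 0.039. The genes nearest to *Cd33* were *D930048N14Rik*, *Mmp27* and *H2-K2*, at 0.077 to 0.12. Profiles over 6 libraries of 2 genotypes resemble each other easily, and these values are a description.

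The activating members of the Cd300 family lay slightly higher in Lcn10-KO without passing the test. *Cd300lb* (ENSMUSG00000063193.8, chromosome 11, 114922781 to 114934386, minus strand) codes for a receptor that signals through DAP12. It had 6441, 6983 and 7002 normalized counts in WT and 7243, 7176 and 7100 in Lcn10-KO. These groups did not overlap, but the distance between WT replicate 3 and Lcn10-KO replicate 3 was small beside the gap between WT replicate 1 and the other WT libraries (log2 fold change 0.08 ± 0.04, limma adjusted p = 0.294). *Cd300ld* (ENSMUSG00000034641.2, chromosome 11, 114982274 to 114989922, minus strand), an activating receptor of myeloid cells, had 1743, 1842 and 1904 in WT and 1860, 2075 and 2001 in Lcn10-KO. Lcn10-KO replicate 1 lay below WT replicate 3, so the groups overlapped (0.11 ± 0.05, limma adjusted p = 0.198).

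The inhibitory members of the Cd300 family lay on opposite sides of 0, and neither passed. *Cd300a* (ENSMUSG00000034652.12, chromosome 11, 114890041 to 114904654, plus strand), an ITIM receptor for phosphatidylserine and phosphatidylethanolamine on dying cells, had 2746, 2958 and 2724 normalized counts in WT and 3076, 2975 and 3013 in Lcn10-KO. Both groups were separate, with WT replicate 2 close below Lcn10-KO replicate 2 (log2 fold change 0.11 ± 0.05, limma adjusted p = 0.157). *Cd300lf* (ENSMUSG00000047798.15, chromosome 11, 115116214 to 115133992, minus strand), also an ITIM receptor for lipids and the entry receptor of murine norovirus, had 280, 172 and 220 in WT and 187, 164 and 171 in Lcn10-KO. WT replicates 1 and 3 lay above every Lcn10-KO library, while WT replicate 2 fell among them. Its log2 fold change was −0.34 ± 0.15 (limma adjusted p = 0.193, 95% interval −0.68 to 0.0024). Without WT replicate 2, the WT library that lay among the Lcn10-KO values, it passed the test at −0.51 (limma adjusted p = 0.0184). Without WT replicate 1 its log2 fold change was −0.16 (limma adjusted p = 0.473). *Cd300lf* lies within the span of *Rab37*, on the opposite strand, which had at most 9.59 normalized counts in any library.

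*Cd33* (ENSMUSG00000004609.11, chromosome 7, 43524216 to 43544428, minus strand) codes for a sialic acid-binding lectin of myeloid cells, known in humans as a risk gene of Alzheimer disease. Its normalized counts were 199, 183 and 270.2 in WT replicates 1 to 3 and 337, 338 and 368 in Lcn10-KO replicates 1 to 3. The Lcn10-KO libraries were close together and all above WT replicate 3, the highest of the spread-out WT libraries. The mean rose from 217 ± 46.4 to 348 ± 17.4 (SD, n = 3 each), a log2 fold change of 0.69 ± 0.13 (SE, limma adjusted p = 0.0115, 95% interval 0.41 to 0.98). Without Lcn10-KO replicate 2 or 3 the log2 fold change was 0.71 and 0.65, and the adjusted p of 0.0572 and 0.0692 no longer passed. Relative to *Tyrobp*, *Cd33* stood at 0.0149 ± 0.0026 in WT and 0.0211 ± 0.0020 in Lcn10-KO (SD, n = 3 each, exact two-sided permutation p = 0.1).

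The other Siglecs among the members gave no call. *Siglec1* (ENSMUSG00000027322.11, chromosome 2, 131069220 to 131086765, minus strand), which codes for sialoadhesin and is known to be induced by interferon, had 2032, 1920 and 1831 normalized counts in WT and 2052, 2052 and 1595 in Lcn10-KO. Lcn10-KO replicate 3 was the lowest and the other Lcn10-KO libraries the highest of the 6 (log2 fold change −0.03 ± 0.10, limma adjusted p = 0.892, 95% interval −0.26 to 0.20). *Siglece* (ENSMUSG00000030474.9, chromosome 7, 43651070 to 43660161, minus strand), an ITIM receptor of neutrophils and macrophages, had 30.5, 39.99 and 24.7 in WT and 31.9, 31.3 and 20.8 in Lcn10-KO. At this depth the spread among replicates was wide, and the interval of −0.75 to 0.40 leaves a change in either direction possible (−0.17 ± 0.26, adjusted p = 0.737).

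**Figure D3:**
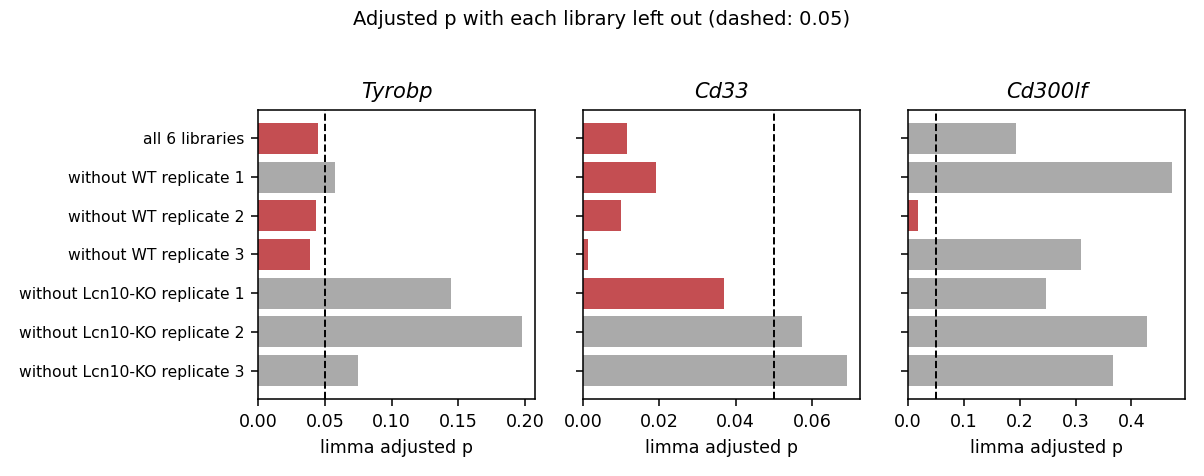
Limma adjusted p (x axis, a separate scale in each panel) of *Tyrobp*, *Cd33* and *Cd300lf* with all 6 libraries and with each library left out, red where under 0.05 and dashed at 0.05. *Tyrobp* passed without WT replicate 2 or 3 only, *Cd33* without each library except Lcn10-KO replicates 2 and 3, and *Cd300lf* only without WT replicate 2.

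The remaining genes of the 3 families were looked at by name. Of the 5 other Trem genes, 4 were tested and 1 was lower, against 5.14% of all genes tested. *Trem1*, the DAP12-coupled receptor that amplifies inflammation, had 18.4, 14.1 and 14.2 normalized counts in WT and 3.50, 4.65 and 5.97 in Lcn10-KO, a mean 3.31-fold lower (log2 fold change −1.55 ± 0.38, limma adjusted p = 0.0267). The groups were well apart, but these are few reads per library, and *Trem1* passed the filter only through its WT values, so that it could be tested only because it was higher there. It lost its call without Lcn10-KO replicate 1, 2 or 3 (adjusted p of 0.0687 to 0.0834) and was not tested when a WT library was left out. *Treml1*, *Treml2* and *Treml4* had log2 fold changes of 0.26 ± 0.33, −0.26 ± 0.37 and −0.32 ± 0.33 and did not pass.

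Of 9 other Cd300 names 7 were in the table, 6 were tested and 2 were higher, against 4.70% of all genes tested called higher. *Cd300c2*, an activating receptor of the Cd300 cluster, had 2361, 2519 and 2591 normalized counts in WT and 2831, 2978 and 2818 in Lcn10-KO. All Lcn10-KO libraries lay above WT (log2 fold change 0.21 ± 0.05, limma adjusted p = 0.0192). *Cd300ld3* had 2120, 2588 and 2679 in WT and 3081, 2971 and 3142 in Lcn10-KO (0.32 ± 0.08, limma adjusted p = 0.0391). Both calls were lost without Lcn10-KO replicate 1, 2 or 3, with adjusted p of up to 0.115 for *Cd300c2* and 0.135 for *Cd300ld3*. *Cd300ld3* cannot be told apart from its copies with certainty: 84.1% of the 31-base words of its annotated transcript also occur in transcripts of other genes, as do 96.2% of those of *Cd300ld4* and 100% of those of *Cd300ld5*. The copies were therefore also summed, after the values were seen. The sum was 2618, 3150 and 3173 in WT and 3706, 3670 and 3794 in Lcn10-KO, with a log2 fold change of 0.33 ± 0.07 (limma adjusted p = 0.0171), and its call too was lost without Lcn10-KO replicate 1, 2 or 3 (0.0562, 0.0731 and 0.0856). Among the members the share of such words was at most 9.11%, in *Cd300lf*, and 6.56% in *Cd300ld* and 7.70% in *Cd300a*, and it was 0 in *Trem2*, *Tyrobp* and *Cd300lb*.

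Of 7 other Siglec names 6 were in the table, 3 were tested and 1 was higher, against 4.70% of all genes tested. *Cd22*, an inhibitory Siglec best known from B cells whose locus overlaps the antisense gene *Gm29439*, had 169, 143 and 139 normalized counts in WT and 219, 225 and 194 in Lcn10-KO (log2 fold change 0.51 ± 0.11, limma adjusted p = 0.0173). All Lcn10-KO values were higher. Leaving out WT replicate 3 or any 1 Lcn10-KO library ended the call (adjusted p of up to 0.102). The B cell markers *Cd79a*, *Ms4a1* and *Pax5* lay at or near 0, below 10 in every library, while *Cd79b* lay at 17.9, 31.1 and 32.7 in WT and at 36.9, 31.9 and 37.2 in Lcn10-KO. *Ebf1*, another B cell marker, lay at 19.2, 14.0 and 21.9 in WT and at 36.5, 24.1 and 19.9 in Lcn10-KO, with overlapping groups. Its log2 fold change of 0.50 was close to that of *Cd22* but did not pass (limma adjusted p = 0.319), and *Cd79b* did not pass either (0.41, adjusted p = 0.358). The part of B cells in the result was not tested. *Siglecf*, a Siglec of eosinophils and alveolar macrophages, had a log2 fold change of −0.43 ± 0.21 (limma adjusted p = 0.217) and *Mag*, the myelin-associated Siglec, one of 0.34 ± 0.19 (adjusted p = 0.297).

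**Figure D4:**
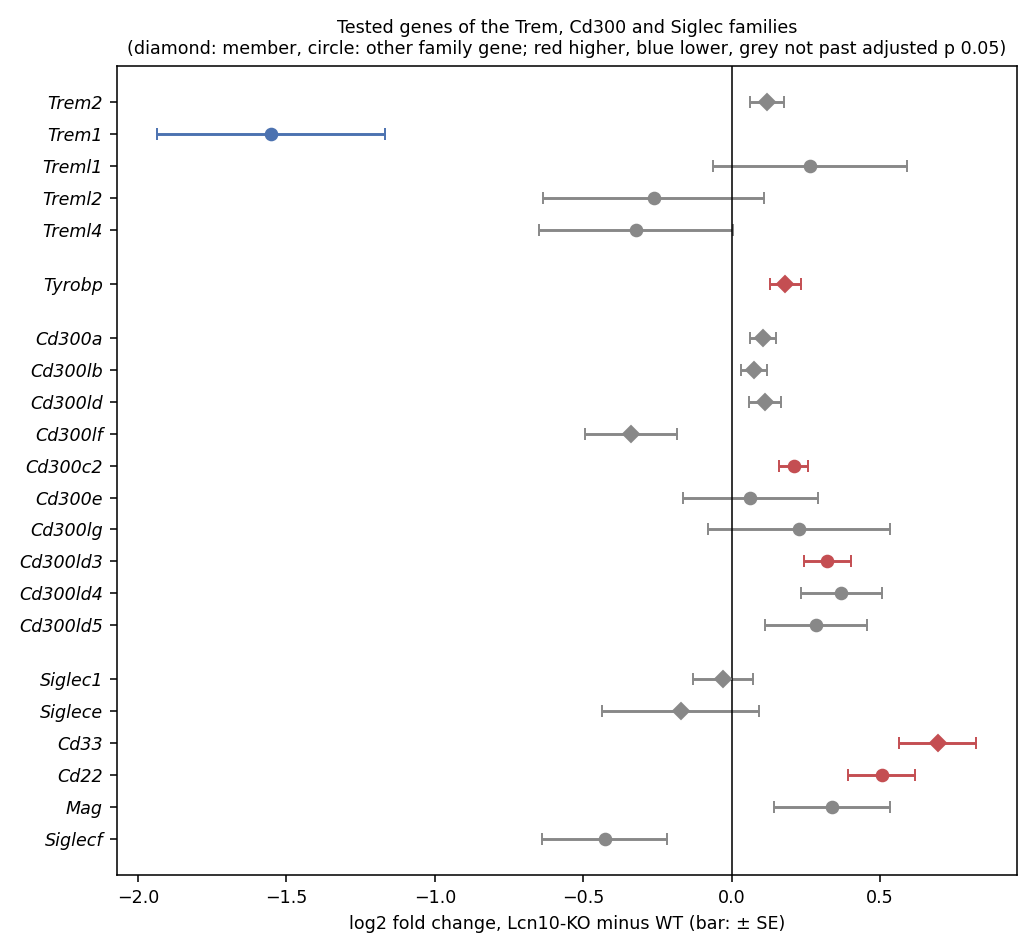
Log2 fold change (Lcn10-KO minus WT, x axis) ± SE of the tested genes of the Trem, Cd300 and Siglec families and *Tyrobp*, diamonds for the members, red for higher, blue for lower and grey for not past the threshold. *Cd33* and *Cd22* have the largest increases called, and *Trem1*, at few reads, the only decrease called.

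The partners of the receptors were described next. In the list of ITAM adaptors and other receptors that pair with them, 1 of 11 tested genes was higher and none lower. The median log2 fold change was 0.17, and 4.70% of all genes tested were called higher and 5.14% lower. *Pira2*, an activating paired immunoglobulin-like receptor that uses the Fc receptor gamma chain, rose from 976 ± 19.1 to 1197 ± 95.2 normalized counts (limma adjusted p = 0.0129), a call that was lost without Lcn10-KO replicate 2 or 3 (up to 0.0700). *Fcer1g*, the gamma chain itself, lay at 12281 ± 742 and 13043 ± 489 (SD, n = 3 each, limma adjusted p = 0.289), and *Hcst*, the adaptor DAP10, at 143 ± 19.6 and 167 ± 12.6 (0.266). *Clec5a*, a DAP12-coupled lectin, lay at 1076, 671 and 864 in WT and 573, 567 and 566 in Lcn10-KO. All of its WT values were higher, but they were spread out and it did not pass (log2 fold change −0.59 ± 0.17, limma adjusted p = 0.0824), although it passed without WT replicate 1 or 2 and with a replicate block.

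Downstream of ITAMs 2 of 27 genes were higher and 1 lower, with a median of 0.08. The shares over all genes tested, for this list and the ITIM list below, were 4.70% higher and 5.14% lower. *Blnk*, an adaptor phosphorylated by SYK, rose from a mean of 1869 ± 131 to one of 2348 ± 73.8 (SD, n = 3 each, log2 fold change 0.33 ± 0.05, limma adjusted p = 0.00478). It passed in each of the 6 fits that left out 1 library, but not without the mean-variance trend (limma adjusted p = 0.102). *Vav3*, a guanine nucleotide exchange factor, rose by 0.23 ± 0.05 (limma adjusted p = 0.0218), whereas *Plcg2*, phospholipase C gamma 2, which passes on the signal of TREM2, fell by 0.19 ± 0.04 (0.0182). The calls of *Vav3* and *Plcg2* were lost without Lcn10-KO replicate 2 or 3, and that of *Plcg2* also without replicate 1. *Lat2*, an adaptor of myeloid cells, missed the threshold (0.14 ± 0.04, limma adjusted p = 0.0528) and passed it under quantile normalization and the stricter filter. Downstream of ITIMs 1 of 10 genes was lower and none higher, with a median of −0.02: *Dok2*, an adaptor that restrains tyrosine kinase signalling, fell by 0.22 ± 0.04 on the log2 scale (limma adjusted p = 0.0109), and its call was lost without Lcn10-KO replicate 2 or 3 (up to 0.0621). *Dok1*, a related adaptor, had 0.13 ± 0.05 (0.0992), and *Inpp5d*, the lipid phosphatase SHIP1, −0.08 ± 0.04 (0.239).

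In a list of TREM2 ligands, the proteases that cut TREM2 from the cell surface and a few other genes, 2 of 12 tested genes were higher and 1 lower. Their median was 0.12, and 4.70% of all genes tested were called higher and 5.14% lower. The WT and Lcn10-KO values did not overlap in 11 of the 12, against 32.4% of all genes tested. Earlier results of these data were known when this list was written, so these counts are not independent evidence. *Adam10*, which sheds the outer part of TREM2, had 7089, 6253 and 6266 normalized counts in WT and 5230, 4994 and 5160 in Lcn10-KO. These groups were far apart relative to their spread (log2 fold change −0.35 ± 0.05, limma adjusted p = 0.00264). The call held when any 1 library was left out, but not without the mean-variance trend (limma adjusted p = 0.0964). *Lgals3*, which codes for galectin-3, a ligand of TREM2, rose from 67692 ± 2032 to 79388 ± 1825 (SD, n = 3 each, log2 fold change 0.23 ± 0.04, limma adjusted p = 0.00573), and its call was lost without Lcn10-KO replicate 2 (0.0518). *Apoe*, the lipoprotein that TREM2 binds, had 115279, 128754 and 123248 in WT and 152881, 138002 and 134964 in Lcn10-KO (0.21 ± 0.05, limma adjusted p = 0.0330). The call of *Apoe* was lost under quantile normalization (0.368) and without WT replicate 3 or any 1 Lcn10-KO library (up to 0.127). Quantile normalization gives genes of equal rank the same value in every library, so it can remove changes of the most abundant genes. Whether it did so for *Apoe* was not tested. *Cyp27a1*, an oxysterol-forming enzyme of the list, had a log2 fold change of 0.47 ± 0.14 (0.0713).

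The next list held genes of lipid-associated macrophages and microglia that have been linked to TREM2. Whether each of them depends on TREM2 was not tested. In this list 10 of 25 genes were higher, 1 was lower and 14 were not past the threshold, with a median of 0.09. Of all genes tested 4.70% were called higher and 5.14% lower. Groups did not overlap in 14 of the 25, against 32.4% of all genes tested. Without Lcn10-KO replicate 2 only 3 genes were called higher, *Fabp4*, *Fabp5* and *Timp2*, and without Lcn10-KO replicate 1 or 3 there were 6. The 10 include *Apoe* and *Lgals3*, already counted among the ligands. The list was written with earlier results of these data known, so its count is not independent evidence of a direction. *Timp2*, an inhibitor of metalloproteinases, rose from 3397 ± 153 to 4562 ± 263 normalized counts (limma adjusted p = 0.000841), next to *Fabp4*, *Fabp5* and *Ctsb*, which had log2 fold changes of 0.63, 0.50 and 0.21. The gene that fell was *Spp1*, osteopontin, a leading gene of such macrophages, named here after its values were seen. It had 79412, 67524 and 78186 in WT and 57406, 49555 and 54004 in Lcn10-KO, with no overlap (log2 fold change −0.48, limma adjusted p = 0.00610). Under quantile normalization 6 genes were called higher, and *Apoe*, *B2m*, *Ctsb* and *Ctsd* lost their calls (named after their values were seen). There *Ctsb* and *Apoe* had log2 fold changes of 0.063 and 0.076. *Lgals3* and *Spp1*, also abundant, had 0.23 and −0.58 under quantile normalization, against 0.23 and −0.48 without it. Whether the lost calls of *Apoe*, *B2m*, *Ctsb* and *Ctsd* come from the method was not tested.

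Siglec ligands depend on the enzymes that make and move sialic acid. Of 19 tested genes of this list 2 were higher and 1 lower, with a median of 0.07, against 4.70% and 5.14% of all genes tested. *St3gal5*, which makes the ganglioside GM3, had 4608, 3572 and 3797 normalized counts in WT and 2544, 2481 and 2476 in Lcn10-KO. It fell by 0.67 ± 0.08 on the log2 scale (limma adjusted p = 0.00447) and likewise passed whichever library was omitted. Without the mean-variance trend it did not pass (limma adjusted p = 0.0796). *Slc17a5*, the exporter of sialic acid from lysosomes, rose by 0.29 ± 0.07 (limma adjusted p = 0.0351) and *St6galnac6*, a sialyltransferase of gangliosides, by 0.24 ± 0.07 (0.0384). The calls of both were lost without any 1 Lcn10-KO library, and that of *St6galnac6* also without WT replicate 1 or 3 (up to 0.140 and 0.156). *Nans*, sialic acid synthase, had −0.15 ± 0.05 (0.0881).

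None of the 20 type I interferon-stimulated genes passed the limma test, none had an unadjusted p under 0.05, and none had groups that did not overlap. Such groups were found in 4 of 11 genes of the ITAM adaptor list, 10 of 27 of ITAM signalling, 3 of 10 of ITIM signalling and 7 of 19 of the sialic acid list, against 32.4% of all genes tested. For the interferon genes the median log2 fold change was −0.09. The smallest p belonged to *Ifi44*, at 13.6 ± 7.03 normalized counts in WT and 23.2 ± 7.59 in Lcn10-KO (SD, n = 3 each, limma adjusted p = 0.257), followed by *Bst2*, *Usp18* and *Mx1* with log2 fold changes of −0.16, −0.31 and −0.51.

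**Figure D5:**
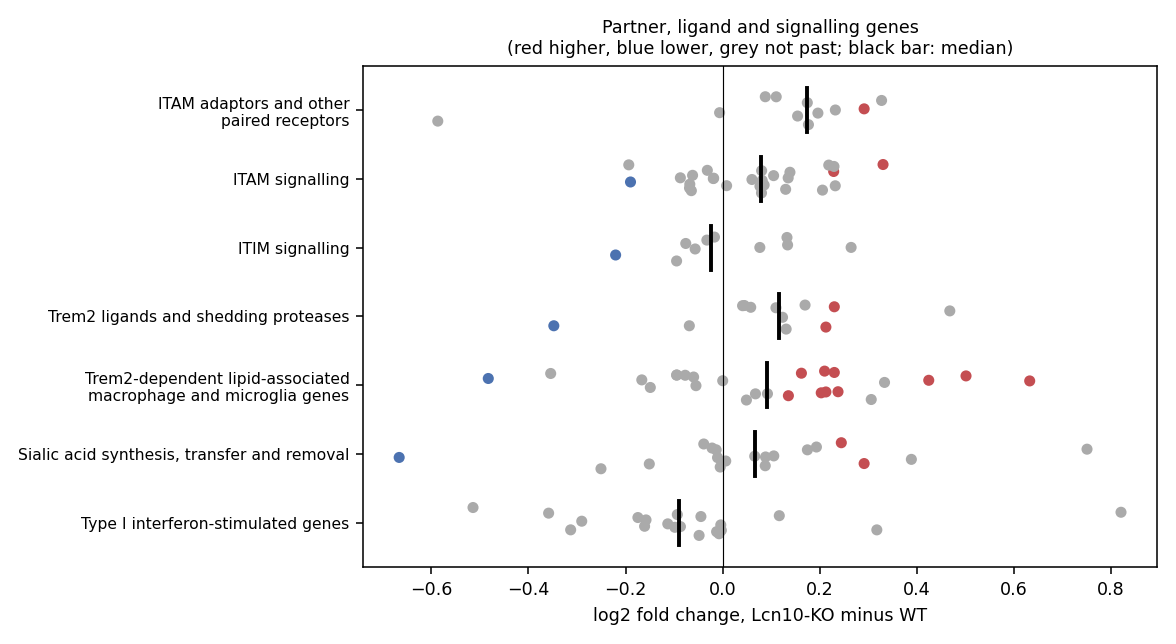
Log2 fold change (Lcn10-KO minus WT, x axis) of each tested gene of the 7 lists of partners, ligands and signalling genes, red for higher, blue for lower and grey for not past the threshold, with a black bar at the median. Called genes lie on both sides of 0 in 4 of the 7 lists, and the interferon list has none.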

How the data were processed

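Per the submitters' processing notes, bcl2fastq, STAR 2.6.1a, Salmon 0.11.2 and DESeq2 were used with mm10, without role or order. The annotation, filters and strand setting were not given in the sources used here. Values are a deposited signal, which is counts that the authors scaled, with totals of 20476668 to 20636260 per library. Whole reads could not be recovered, since only low values lay near multiples of 1 read, so no test for counts was used. Genes with at least 10 in at least 3 libraries (12091) were fitted as log2(value + 1) with limma 3.58.1 in R 4.3.3. Genotype was the only term, with trend and robust estimation. The fit was run on simulated counts with 1 spread setting for all genes, which does not check it at the spread of these data. P-values were adjusted over all genes tested. The members and lists were chosen with earlier results of these data known. Named were the members, *Lcn10*, up to 4 genes of each list by p, and the genes nearest to *Trem2* and to called members by profile; any other name was picked with its values in view. Positions and lengths are from GENCODE vM21 (GRCm38). Alternatives were 2 other scalings, no trend, other filters and pseudocounts, a replicate block, each library left out, and summed copies. Figures used matplotlib 3.10.9.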

Additional observations from a re-analysis of the deposited data

How the results depend on the processing

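Against 1190 genes and 2 members called, limma without the mean-variance trend called 14 and 0, and leaving out 1 library gave 175 to 1664 genes and 0 to 3 members. No member was called without Lcn10-KO replicate 2 or 3, and 1 without WT replicate 1 or Lcn10-KO replicate 1; the cause was not tested. Both *Cd33* and *Tyrobp* stayed past the threshold under quantile normalization, median ratio rescaling, no filter, a stricter filter and pseudocounts of 0.5 and 10. Without the trend their adjusted p were 0.114 and 0.189. Changes of sign among the members occurred in *Siglec1* and *Siglece*, neither of them called. Over the 6 left-out libraries *Siglec1* ran from −0.090 to 0.091 and *Siglece* from −0.33 to 0.021. *Siglec1* had log2 fold changes of 0.0090 without WT replicate 1 and 0.091 without Lcn10-KO replicate 3, and *Siglece* 0.0029 without WT replicate 2 and 0.021 without Lcn10-KO replicate 3. The fit was planned with genotype only, because the labels name no batch. Correlations of deviations between the genotypes were 0.014 to 0.073 for same-numbered libraries and −0.063 to 0.026 for others. By them 5 of 6 libraries were closest to their own number, and whether the numbers mark pairs was not tested. With a replicate block 1607 genes and 2 members were called. There the limma adjusted p was 0.000441 for *Cd33*, 0.0422 for *Tyrobp* and 0.0652 for *Cd300lf*. In all, 112 of 125 alternative values of the members kept their direction and their side of the threshold, but most of them belong to members that were not called. Of the called members, *Tyrobp* kept its call in 9 of 14 alternatives and *Cd33* in 11 of 14. Depth limits *Siglece* and *Trem1*, at 3.50 to 39.99 normalized counts per library.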
